A study of Mus musculus with 14 samples.

Results

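The unfolded protein response was described here through 10 genes, its 3 sensors and 7 of its transcription factors and targets, picked by symbol out of the 24421 genes counted in RNA of the hippocampus, the tissue on the labels. Ern1 and Xbp1 stood for the IRE1/XBP1 branch, Atf6 and Herpud1 for the ATF6 branch, and Eif2ak3, Atf4, Atf3, Ddit3, Trib3 and Asns for the PERK/ATF4 branch. RNA came from 7 naive male mice labelled LPAR2-/- and 7 naive male wild-type (WT) mice, 1 library per mouse, all of the mixed strain 129.C57Bl6 and without treatment. LPAR2 is a receptor for lysophosphatidic acid, and the knockout allele lacks a part of a coding exon. According to the study's methods, the knockout mice were bred as a homozygous colony beside a separate control colony, so that genotype and colony cannot be told apart. Their age, 10 to 12 weeks on the labels, and the dissected region are not settled, since other descriptions of the same mice contradict the age and name the dentate gyrus. Samples were grouped by label, and the libraries carried no named batch.

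Proteins destined for membranes and secretion fold in the endoplasmic reticulum (ER), and the unfolded protein response adjusts the folding capacity of the ER to its load. Of the sensors in the ER membrane, IRE1 alpha (Ern1) removes a short intron from Xbp1 mRNA so that the active transcription factor is made, ATF6 is cut in the Golgi to release a transcription factor, and PERK (Eif2ak3) phosphorylates eIF2 alpha, which slows translation in general but favours that of ATF4. The first pair of branches mainly feeds chaperones, ER entry and degradation of misfolded proteins, while ATF4 and CHOP (Ddit3) act on amino acid supply, redox balance and cell fate. These activation steps take place on proteins and by splicing, and counts per gene show mRNA levels only.

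The IRE1 intron of Xbp1 is given because it is the step that the counts do not resolve. In the build mm10 it lies in exon 4 of the transcript Xbp1-201, at chr11:5524282-5524307 on the plus strand (GENCODE annotation). It is 26 bases long and is printed in capitals between 12 bases of exon on each side.

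Xbp1 intron: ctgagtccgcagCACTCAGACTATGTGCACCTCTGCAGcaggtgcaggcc

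With the intron the reading frame holds 267 codons, and without it 371. The annotation used for counting holds both forms, with 1 exon that spans the intron, 1 that ends before it at 5524281 and 1 that starts after it at 5524308. All were summed into a single count, so spliced and unspliced Xbp1 could not be told apart.

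Promoters of 9 of the 10 genes (not Atf6) were matched in RefSeq (GRCm38.p6, the same assembly as mm10), each from 250 bases before to 50 bases after the start. These were searched on both strands for the ER stress element ERSE (CCAAT and CCACG with any 9 bases between), for ERSE-II (ATTGG and CCACG with any 1 base between), for the element UPRE (TGACGTGG), for the cAMP response element CRE (TGACGTCA) and for the C/EBP-ATF element CARE (TGATGNAAN). The letters of UPRE and CRE share their first bases. Of 32851 promoters of this length, 0.119% held ERSE, 0.0365% ERSE-II, 0.676% UPRE, 1.79% CRE and 3.95% CARE. Herpud1 held ERSE-II and CARE, and Atf3, Trib3 and Asns each held 1 CARE. The stretches are shown on the strand of the gene with the matches in capitals, and positions are counted from the start of the transcript.

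Herpud1, −123 to −32, chr8:94386306-94386397, plus strand: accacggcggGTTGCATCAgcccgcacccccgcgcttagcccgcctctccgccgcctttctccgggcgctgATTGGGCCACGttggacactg
Atf3, −121 to −93, chr1:191183426-191183454, minus strand: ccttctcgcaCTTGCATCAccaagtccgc
Trib3, 3 to 31, chr2:152344029-152344057, minus strand: ttagctcaggTTTACATCAgccgggcggg
Asns, −33 to −5, chr6:7693214-7693242, minus strand: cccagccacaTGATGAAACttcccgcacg

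CARE is read on the opposite strand in Herpud1, Atf3 and Trib3 and on the strand of the gene in Asns. None of these letters was in the windows of Ern1, Xbp1, Eif2ak3, Atf4 and Ddit3.

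The libraries held between 15434620 and 23258949 reads on genes, and the genotypes did not differ in this total (exact two-sided permutation test, p = 0.893). Values per mouse are counts relative to library size (CPM), scaled by TMM, a correction for library composition. Lpar2 itself was higher in the libraries labelled LPAR2-/- (144 to 234 counts) than in WT libraries (27 to 66 counts), with a log2 fold change of 2.01 ± 0.16 (SE, n = 7 per genotype, edgeR adjusted p = 8.2e-07). The count is a sum over the exons of the gene and does not test the deleted stretch, so genotypes are named as labelled throughout. Markers of neurons, dentate gyrus, CA1 and CA3 were present in all libraries. Of 15 lists of cell type and region markers, the summed CPM of the 5 striatal genes differed (63.4 to 75.6 CPM in mice labelled LPAR2-/-, 55.3 to 65.4 CPM in WT, exact permutation test, adjusted p = 0.0437 over the lists). The 4 CA3 markers summed to 1467 to 1785 CPM in mice labelled LPAR2-/- and to 1649 to 2007 CPM in WT mice (adjusted p = 0.0918 by the same exact test). The 6 choroid plexus markers reached 287 CPM in mouse 2 labelled LPAR2-/-, against a median of 35.3 CPM in its genotype and 29.0 to 34.0 CPM in WT mice. The 5 oligodendrocyte markers reached 3635 CPM in mouse 3 labelled LPAR2-/- (median 1269 CPM in its genotype, highest WT mouse 1889 CPM), and the 4 CA1 markers reached 207 CPM in WT mouse 2 (median 85.0 CPM in WT). The 5 meningeal markers summed to a mean of 179 CPM in mice labelled LPAR2-/- and 105 CPM in WT mice (adjusted p = 0.231 by the exact test). Single markers called were Tdo2 of the dentate gyrus list (log2 fold change 0.45, edgeR adjusted p = 0.0244) and Lum of the meningeal list (0.54, adjusted p = 0.0132). Hba-a1, Hba-a2, Hbb-bs and Hbb-bt had no count in any library, and no marker of the other lists was at 0 throughout. The part of these differences in the results that follow was not tested. In tissue RNA, fewer cells of a type and less RNA per cell cannot be told apart.

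Calls fell on single members of the branches. Of the 9 members tested, Xbp1 and Atf3 were lower in mice labelled LPAR2-/- at an adjusted p under 0.05, and 0 were higher (edgeR, with 3 lower and 0 higher at an unadjusted p under 0.05 and also with DESeq2). Among all 14897 genes tested, 515 were called lower, which is 3.46%, and 494 were called higher, which is 3.32%. At an unadjusted p under 0.05, 11.1% of all genes were lower and 11.3% higher, and DESeq2 called 5.07% lower and 4.66% higher. The counts of the gene lists are to be read beside these shares. Trib3 did not pass the filter on low counts. The IRE1/XBP1 branch had 1 of 2 members called lower, the PERK/ATF4 branch 1 of 5 tested and the ATF6 branch 0 of 2, with Herpud1 just outside the threshold at an adjusted p of 0.0505. The call of Xbp1 is on total mRNA and does not report splicing by IRE1. The sensors Ern1, Atf6 and Eif2ak3 did not pass the test. The median log2 fold change of the 9 members was −0.04, beside 0.003 for all genes tested. The ranges of both genotypes overlapped for all 10 genes, whereas 1.77% of all genes tested had ranges without overlap.

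**Figure D1:**
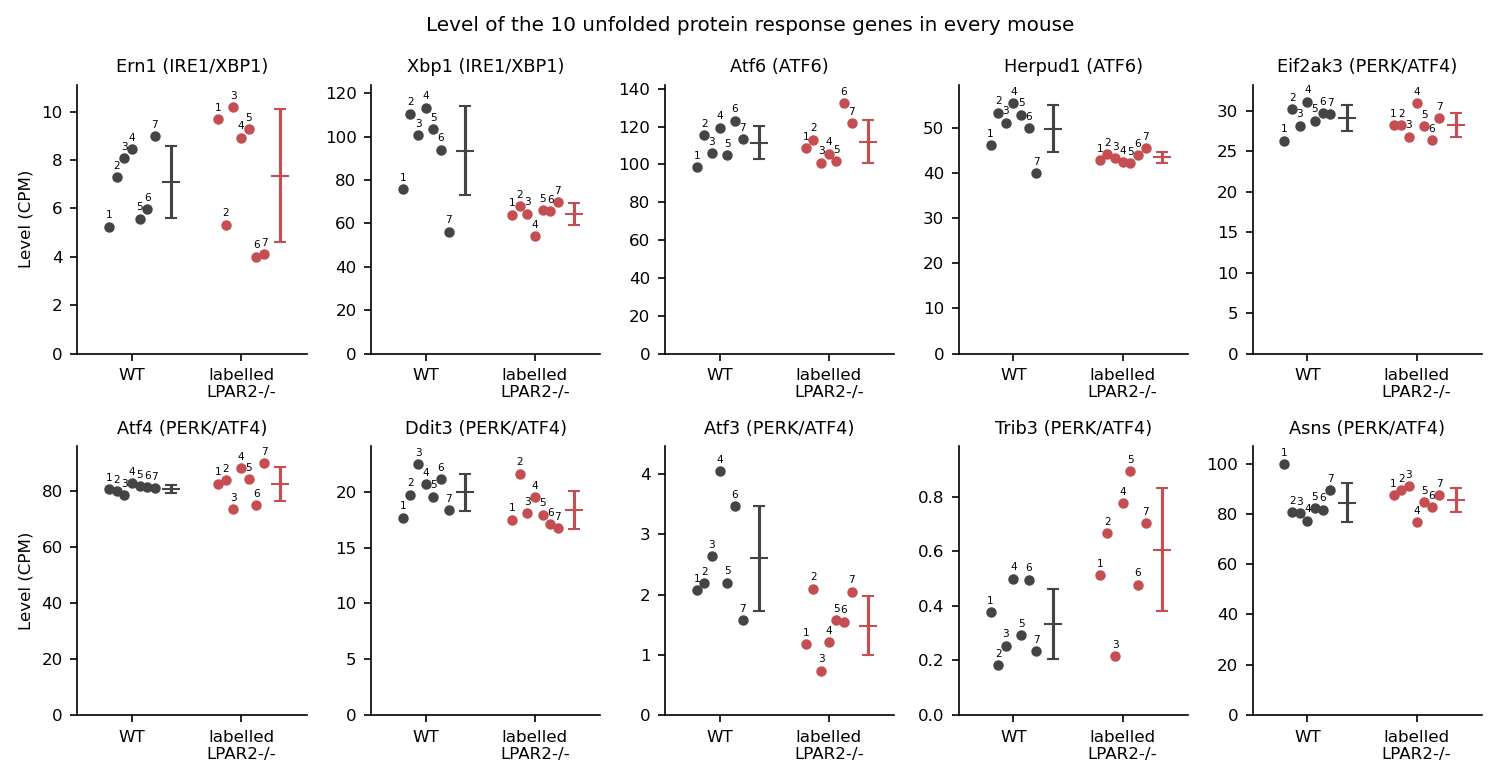
Level (CPM) of each gene in every mouse, WT in grey and mice labelled LPAR2-/- in red, numbered by mouse, with the mean and SD as bars beside the points (n = 7). For Xbp1 and Herpud1, 6 of the 7 WT mice lie above all mice labelled LPAR2-/-, while WT mouse 7 lies at 56.2 and 40.0 CPM.

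Xbp1, the transcription factor made by IRE1 splicing, lies on chromosome 11 (5520641 to 5525993). Its level was 54.0 CPM in the lowest, 65.6 CPM in the median and 69.7 CPM in the highest mouse labelled LPAR2-/-, and 56.2, 101 and 113 CPM in WT mice. Thus 6 of 7 WT mice were above the highest mouse labelled LPAR2-/-, and the exception was WT mouse 7, which was the lowest of its genotype. The means were 64.6 ± 5.05 CPM and 93.5 ± 20.6 CPM (SD, n = 7 each). The log2 fold change was −0.54 ± 0.13 (SE, 95% interval −0.81 to −0.26, edgeR adjusted p = 0.0227), which corresponds to −31.0%. Without WT mouse 7 the fold change was −0.63 (adjusted p = 0.00057), and without WT mouse 2 or WT mouse 5 the adjusted p rose to 0.0518 and 0.0507. WT mice spread more than mice labelled LPAR2-/-, with coefficients of variation of 22% and 7.82%, a difference that was not tested.

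Ern1, which encodes the sensor that splices Xbp1, lies on chromosome 11 (106397620 to 106487796). Mice labelled LPAR2-/- had 4.00 to 10.2 CPM with a median of 8.92 CPM, and WT mice 5.25 to 8.98 CPM with a median of 7.28 CPM. Within the labelled genotype, mice 2, 6 and 7 had 5.33, 4.00 and 4.10 CPM and the other 4 mice 8.92 to 10.2 CPM, without values in between. The log2 fold change was 0.07 ± 0.22 (SE, 95% interval −0.41 to 0.54, edgeR adjusted p = 0.894). This interval covers changes of the size seen for Xbp1 in the positive direction, so Ern1 was less well determined than the other sensors.

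Atf6, the sensor of the second branch, lies on chromosome 1 (170704457 to 170867771). Its level ranged from 101 to 133 CPM (median 109) in mice labelled LPAR2-/- and from 98.5 to 123 CPM (median 113) in WT mice. The ranges lay almost on top of each other. The log2 fold change was 0.01 ± 0.06 (SE, 95% interval −0.13 to 0.14, edgeR adjusted p = 0.972).

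Herpud1 encodes a membrane protein of ER-associated degradation that is induced through ERSE-type elements, and also by the other branches. The gene, on chromosome 8 (94386500 to 94395358), had 42.3 to 45.5 CPM with a median of 43.4 CPM in mice labelled LPAR2-/-, and 40.0 to 55.6 CPM with a median of 51.3 CPM in WT mice. As for Xbp1, 6 of 7 WT mice were above the highest mouse labelled LPAR2-/-. WT mouse 7 was below all mice labelled LPAR2-/-, whereas for Xbp1 it lay above mouse 4 of that genotype. The mean was 43.5 ± 1.15 CPM against 49.9 ± 5.28 CPM (SD, n = 7 each), and the log2 fold change was −0.20 ± 0.06 (SE, 95% interval −0.32 to −0.08, edgeR adjusted p = 0.0505). Without WT mouse 7 the change was −0.25 with an adjusted p of 0.00352, and DESeq2 in place of edgeR gave −0.20 with an adjusted p of 0.0209.

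**Figure D2:**
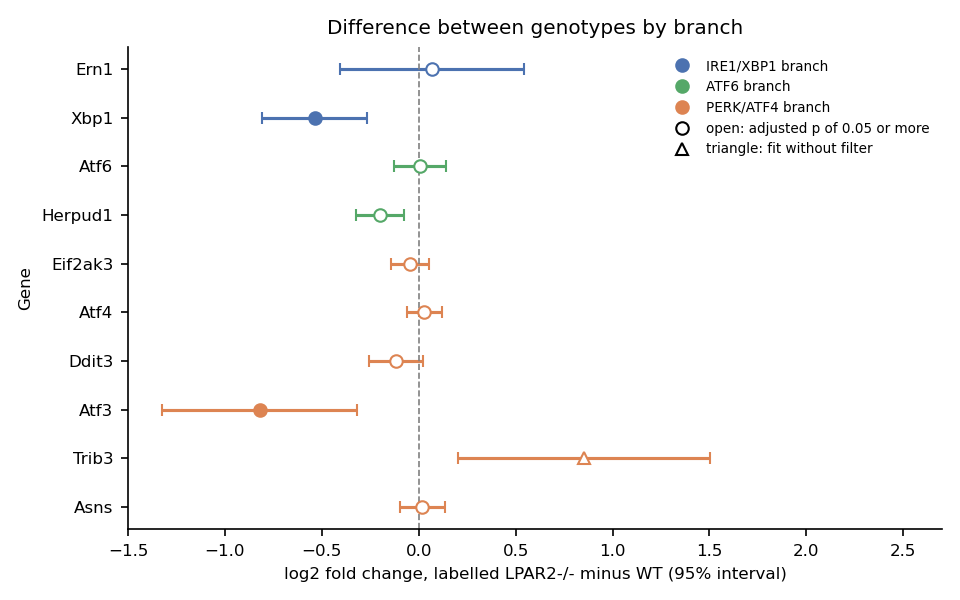
log2 fold change of each gene (labelled LPAR2-/- minus WT) with its 95% interval, coloured by branch, where filled circles are past an adjusted p of 0.05 and the triangle is Trib3 from a fit without a filter on low counts. The intervals of Xbp1, Herpud1 and Atf3 lie below 0, while those of the 3 sensors, Atf4, Ddit3 and Asns include 0.

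Eif2ak3, which encodes PERK, lies on chromosome 6 (70844527 to 70905240). Its level was 26.4 to 30.9 CPM (median 28.2) in mice labelled LPAR2-/- and 26.3 to 31.2 CPM (median 29.6) in WT mice. The coefficients of variation, 5.31% and 5.38%, were the lowest pair among the sensors. The log2 fold change was −0.04 ± 0.05 (SE, 95% interval −0.14 to 0.05, edgeR adjusted p = 0.62).

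Atf4, the transcription factor translated when eIF2 alpha is phosphorylated, lies on chromosome 15 (80255184 to 80257545). Mice labelled LPAR2-/- had 73.6 to 89.8 CPM with a median of 83.8 CPM, and WT mice 78.4 to 82.8 CPM with a median of 81.0 CPM. The WT values were contained within the labelled range, and 4 mice labelled LPAR2-/- lay above and 2 below all WT mice. The log2 fold change was 0.03 ± 0.04 (SE, 95% interval −0.06 to 0.12, edgeR adjusted p = 0.75). Its own control is largely translational, so the mRNA level does not report the amount of protein.

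Ddit3, which encodes CHOP, lies on chromosome 10 (127290793 to 127296288), where 272 bases of its exons overlap Mars on the opposite strand. Reads were counted with regard to strand. The level was 16.8 to 21.6 CPM (median 17.9) in mice labelled LPAR2-/- and 17.7 to 22.5 CPM (median 19.8) in WT mice. With 6 of 7 mice labelled LPAR2-/- below the WT median, the log2 fold change was −0.12 ± 0.07 (SE, 95% interval −0.26 to 0.02, edgeR adjusted p = 0.31).

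Atf3 encodes a stress- and activity-induced transcription factor downstream of ATF4. The gene, on chromosome 1 (191170297 to 191183333), was read 17 to 41 times in libraries labelled LPAR2-/- and 27 to 81 times in WT libraries. Its level was 0.736, 1.55 and 2.10 CPM in the lowest, median and highest mouse labelled LPAR2-/- and 1.57, 2.20 and 4.05 CPM in WT mice. All 7 mice labelled LPAR2-/- were below the WT median, and 5 WT mice were above all of them. The log2 fold change was −0.82 ± 0.24 (SE, 95% interval −1.32 to −0.32, edgeR adjusted p = 0.0479). This call rested on few reads and did not hold in 10 of the 14 fits with 1 mouse removed, whose fold changes ranged from −0.93 to −0.68.

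Trib3, a pseudokinase induced by ATF4 and CHOP, and Asns, the asparagine synthetase, are targets at the end of the branch. Trib3 on chromosome 2 (152337425 to 152344060) was read 5 to 18 times in libraries labelled LPAR2-/- (0.217 to 0.895 CPM, median 0.666) and 4 to 10 times in WT libraries (0.182 to 0.50 CPM, median 0.293). In 5 mice labelled LPAR2-/- the level was above all WT mice, and the fit without a filter gave a log2 fold change of 0.85 ± 0.31 (SE, 95% interval 0.20 to 1.51, edgeR adjusted p = 0.136). Asns on chromosome 6 (7675171 to 7693182) had 76.6 to 91.0 CPM (median 87.4) in mice labelled LPAR2-/- and 77.3 to 99.8 CPM (median 81.7) in WT mice. Its log2 fold change was 0.02 ± 0.05 (SE, 95% interval −0.10 to 0.13, edgeR adjusted p = 0.884).

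Per kilobase of counted exon, Atf4 was the most abundant of the 10 mRNAs with a mean of 47.2 CPM per kb over the 14 mice. Asns followed with 44.1, Xbp1 with 35.2, Herpud1 with 25.0 and Ddit3 with 22 CPM per kb. The sensors were less abundant than these, with 15 CPM per kb for Atf6, 6.38 for Eif2ak3 and 1.82 for Ern1. Atf3 at 1.03 and Trib3 at 0.229 CPM per kb closed the order. The ranges over mice of the neighbours Ddit3 and Atf6, Atf6 and Eif2ak3, and Eif2ak3 and Ern1 did not overlap, so these steps held in every mouse. Ranges of the other neighbours overlapped, although Xbp1 was above Herpud1 and Atf3 above Trib3 within all 14 mice. Atf4 was above Asns in 12 mice and Asns above Xbp1 in 10.

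**Figure D3:**
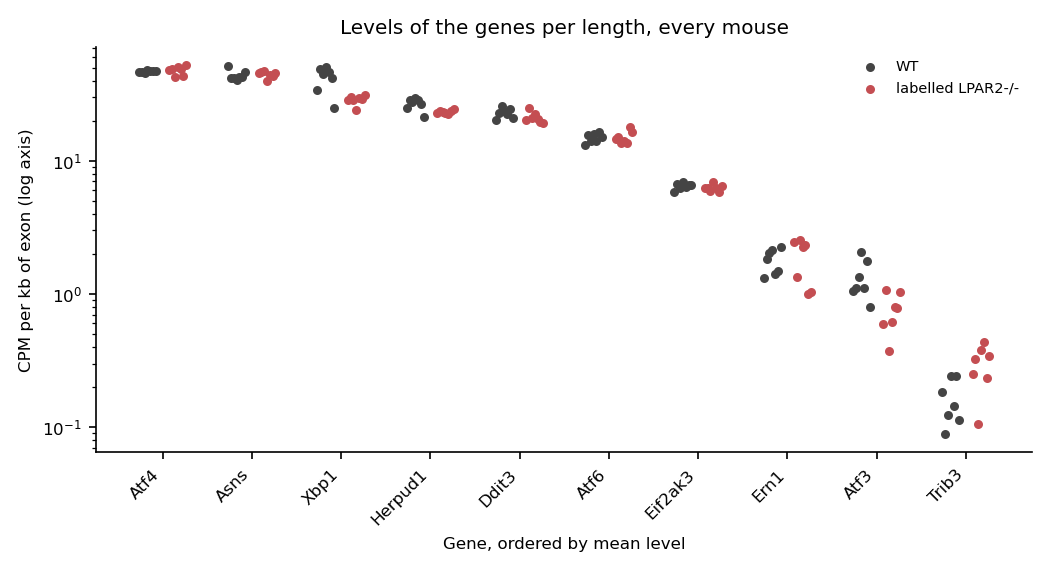
Level of each gene in CPM per kb of counted exon on a log axis, 1 point per mouse, WT in grey and mice labelled LPAR2-/- in red, ordered by the mean over the 14 mice. Levels run from 47.2 CPM per kb for Atf4 to 0.229 for Trib3, and the 3 sensors stand apart from each other.

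To ask whether 2 members changed by different amounts, the log2 difference between them was taken within each mouse. It was compared between genotypes in 9 pairs with an exact two-sided permutation test. A pair compares 2 genes and does not test a branch as a whole. Xbp1 fell relative to Herpud1 and relative to Atf4. Its excess over Herpud1 was 0.56 ± 0.10 on the log2 scale in mice labelled LPAR2-/- and 0.88 ± 0.20 in WT mice (SD, n = 7 each), a difference of −0.31 ± 0.09 (SE, exact permutation p = 0.00758, adjusted p = 0.042). Relative to Atf4, Xbp1 lay at −0.35 ± 0.17 in mice labelled LPAR2-/- and at 0.17 ± 0.36 in WT mice (SD, n = 7 each), a difference of −0.53 ± 0.15 (SE, exact permutation p = 0.00932, adjusted p = 0.042). Both adjusted values rose above 0.05 in 10 of the 14 tests that left out 1 mouse. Herpud1 against Atf4 gave −0.22 ± 0.07 (SE, exact permutation test, adjusted p = 0.0542), and this missed the threshold.

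The other pairs missed the threshold as well. Among the sensors the differences were −0.02 ± 0.30 for Ern1 against Atf6, 0.03 ± 0.24 for Ern1 against Eif2ak3 and 0.05 ± 0.07 for Atf6 against Eif2ak3 (SE, exact permutation test, adjusted p from 0.74 to 0.948). A member of each branch was also set against the sensor of that branch, by the exact permutation test with SE and 7 mice per genotype. This gave −0.49 ± 0.31 for Xbp1 against Ern1 (adjusted p = 0.266) and −0.19 ± 0.08 for Herpud1 against Atf6 (adjusted p = 0.0813). Atf4 against Eif2ak3 gave 0.07 ± 0.03 (adjusted p = 0.123). The Xbp1 count is total mRNA, so its pair with Ern1 does not measure splicing by IRE1. The lower Xbp1 mRNA was not shown to differ from the change of Ern1, whose spread was wide.

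Xbp1 and Herpud1 rose and fell together among WT mice. Pearson's r was 0.99 over 7 WT mice (permutation p = 0.00020, adjusted p = 0.00159 over 8 relations) and Spearman's rho was 1 (permutation p = 0.00040, adjusted p = 0.00317). Without WT mice 1 and 7, the mice farthest from the median of Xbp1, r was 0.96 over the other 5. In mice labelled LPAR2-/- r was 0.65 (permutation p = 0.119, adjusted p = 0.239) and rho was 0.64 (permutation p = 0.139, adjusted p = 0.222). Leaving out mice 4 and 7 there gave r = 0.47. Whether the relation differed between genotypes was not tested. Atf3 against Xbp1 gave r = 0.69 and rho = 0.64 in WT mice (permutation p = 0.0911 and 0.139), which fell to −0.03 without WT mice 1 and 7 and so rested on those mice. In mice labelled LPAR2-/- it gave r = 0.46 and rho = 0.82 (permutation p = 0.269 and 0.0341, adjusted p = 0.359 and 0.137), and r = 0.83 without mice 4 and 7. Atf4 against Xbp1 gave r = 0.06 in WT mice and r = −0.15 in mice labelled LPAR2-/- (permutation p = 0.885 and 0.756).

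**Figure D4:**
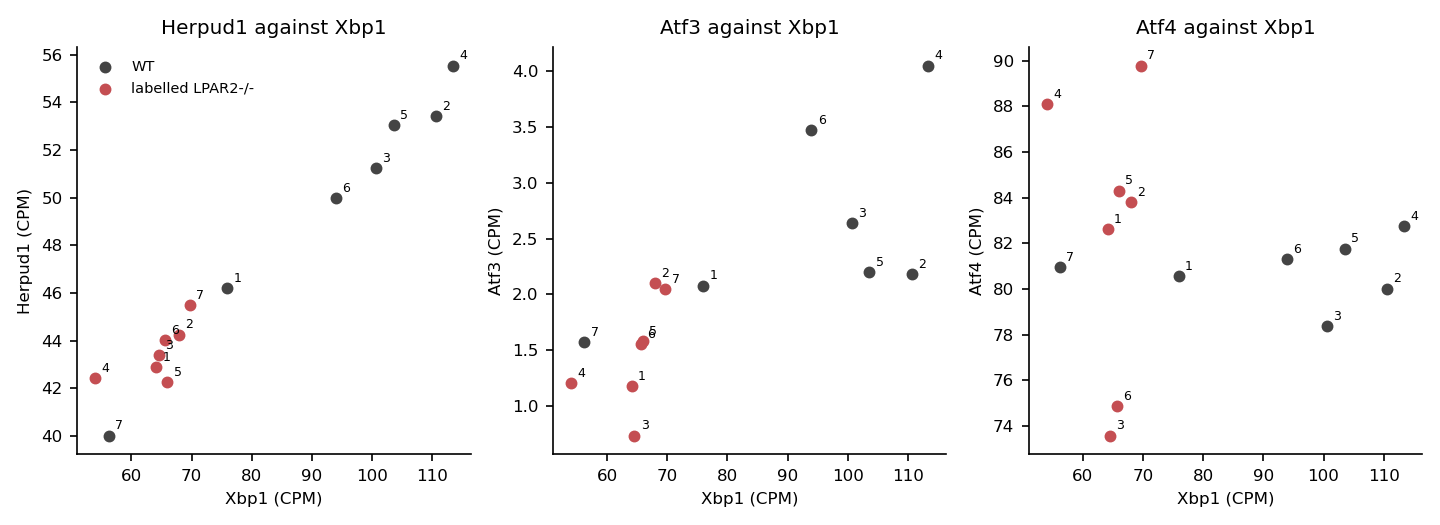
Herpud1, Atf3 and Atf4 (CPM) against Xbp1 (CPM) in each of the 14 mice, WT in grey and mice labelled LPAR2-/- in red, numbered by mouse. Herpud1 follows Xbp1 along a line in WT mice (r = 0.99), WT mouse 7 lies at the low end among the mice labelled LPAR2-/-, and Atf4 against Xbp1 gives r = 0.06 in WT mice.

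The genes whose pattern was most like Xbp1 over the 14 mice, after the genotype means had been removed, were Herpud1 (r = 0.97), the disulfide isomerase Pdia4 (r = 0.91) and the signal peptidase subunit Spcs3 (r = 0.90). For Atf3 they were Nsmce4a (r = 0.93), Asf1a (r = 0.90) and Lekr1 (r = 0.89). Among the members, Eif2ak3 and Atf4 had the next highest r after Xbp1 and Herpud1, at 0.66. Atf6 with Herpud1 gave r = 0.25 and Ern1 with Xbp1 r = −0.19. The most negative pairs were Eif2ak3 with Asns (r = −0.69) and Herpud1 with Asns (r = −0.52). The genes named for Xbp1 and Atf3 were chosen as those with the highest r. The libraries share preparation and depth, so all of these correlations are a description.

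The other genes of the pathway were grouped by the branch that is best known to induce them. Of the 13 ER chaperones and folding factors, which are ATF6-type targets, 10 were called lower by edgeR, 0 higher, and all 13 had negative fold changes with a median of −0.44. At an unadjusted p under 0.05 the list had 13 lower and 0 higher, and with DESeq2 12 lower and 0 higher. Hspa5 encodes BiP, which binds the sensors in the resting ER. It had 223 to 307 CPM (median 241) in mice labelled LPAR2-/- and 260 to 548 CPM (median 426) in WT mice, where the lowest value was again that of WT mouse 7. Its log2 fold change was −0.72 ± 0.15 (SE, edgeR adjusted p = 0.0129). Canx, the lectin chaperone calnexin, changed by −0.22 ± 0.05 (adjusted p = 0.0132), the disulfide isomerase Pdia6 by −0.58 ± 0.12 (adjusted p = 0.0146) and the BiP cochaperone Dnajb11 by −0.31 ± 0.07 (adjusted p = 0.0149). Ranges of the genotypes overlapped for all 10 called chaperones, and in 6 of them WT mouse 7 was the lowest WT mouse. Without WT mouse 7 all 13 were called lower, and without mouse 2 labelled LPAR2-/- 10 were.

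The ER stress element of the chaperones is given because all 13 had negative fold changes. ERSE was in 7 of the 11 chaperone promoters that were matched and ERSE-II in 1, against 0.119% and 0.0365% of all promoters. The list was made of known ATF6-type targets and ERSE is an ER stress element, so a high share was to be foreseen and tests nothing. The matches are shown with the fixed letters in capitals, each in the direction of the element, so that the pattern can be set beside the ERSE-II of Herpud1. Hsp90b1 held 2.

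Hspa5, −65 to −47, chr2:34772025-34772043, plus strand: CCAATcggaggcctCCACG
Hsp90b1, −212 to −194, chr10:86705638-86705656, minus strand: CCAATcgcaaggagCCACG
Hsp90b1, −107 to −89, chr10:86705533-86705551, plus strand: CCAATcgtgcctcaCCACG
Calr, −162 to −144, chr8:84847075-84847093, plus strand: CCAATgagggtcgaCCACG
Canx, −145 to −127, chr11:50325800-50325818, minus strand: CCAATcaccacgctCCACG
Pdia6, −98 to −80, chr12:17266491-17266509, plus strand: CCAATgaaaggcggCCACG
Dnajc3, −105 to −87, chr14:118937827-118937845, plus strand: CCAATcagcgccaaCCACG
Creld2, −126 to −108, chr15:88819520-88819538, minus strand: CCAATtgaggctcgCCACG
Dnajb11 (ERSE-II), 7 to 17, chr16:22857852-22857862, plus strand: ATTGGcCCACG

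Of these genes, Hspa5, Hsp90b1, Calr, Canx, Pdia6 and Dnajb11 were called lower, whereas Dnajc3 (−0.27, edgeR adjusted p = 0.0669) and Creld2 (−0.35, adjusted p = 0.174) were not. Over the whole genome, 18 tested genes had an ERSE in the window, of which 5 were called lower and 0 higher (median of the log2 fold changes −0.13). All of the 5 are among the chaperones above. For ERSE-II these were 1 lower and 0 higher of 8 (median −0.01), for UPRE 4 lower and 3 higher of 120 (median 0.004), for CRE 21 lower and 8 higher of 382 (median −0.03) and for CARE 15 lower and 5 higher of 302 (median 0.01). Of the 11244 tested genes with any promoter entry 402 were called lower and 362 higher. These motif groups were formed after the chaperone values had been seen.

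Across all mice, the chaperones varied more closely with Xbp1 and Herpud1 than with Atf6. Within genotypes, their correlations with Xbp1 and Herpud1 were high in WT mice and low in mice labelled LPAR2-/-. With the genotype means removed, the median r of the 13 chaperones was 0.79 with Xbp1 and 0.84 with Herpud1, against 0.23 with Atf6, −0.14 with Atf4 and 0.31 with Atf3. For Xbp1, r was above 0.5 for 13 of 13 chaperones and for 10.8% of all genes tested. Without WT mouse 7 the median was 0.71 with Xbp1, where again 13 of 13 were above 0.5, and 0.81 with Herpud1, but it fell to 0.13 with Atf3. Within WT mice alone the medians were 0.94 with Xbp1, 0.93 with Herpud1, 0.73 with Atf3, 0.45 with Atf6 and 0.27 with Atf4. There 13 of 13 chaperones were above 0.5 with Xbp1, with Herpud1 and with Atf3, against between 21.6% (Herpud1) and 22% (Atf3) of all genes. With the 6 WT mice other than mouse 7 the medians were 0.95 with Xbp1, 0.96 with Herpud1, 0.53 with Atf3 (9 of 13 above 0.5) and 0.70 with Atf6 (13 of 13, against 6 of 13 with mouse 7). Of all genes, 21.7% were above 0.5 with Atf3 and 25.5% with Atf6 in these 6 mice, and 19.7% with Atf6 when mouse 7 was kept. Within mice labelled LPAR2-/- the median was 0.16 with Xbp1, where 1 of 13 was above 0.5 against 15.9% of all genes, and 0.29 with Herpud1, where 4 of 13 (30.8%) were against 23.6% of all genes. The medians there were −0.14 with Atf6, −0.43 with Atf4 and −0.26 with Atf3. In this genotype mouse 4 had an isolated low value of Xbp1, and mouse 3 isolated high values of Canx and Pdia6. WT mouse 7 was the only mouse left out of these correlations, so the part of mice 3 and 4 in the low values was not tested.

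The XBP1-type list of 22 tested genes, for ER entry, glycosylation and vesicle export, had the opposite order between genotypes with Xbp1, Herpud1 and Atf6. Within mice labelled LPAR2-/- its median r was 0.48 with Xbp1 (10 of 22 above 0.5), 0.56 with Herpud1 (14 of 22) and 0.57 with Atf6 (13 of 22). Of all genes tested, 15.9%, 23.6% and 28.5% were above 0.5 with Xbp1, Herpud1 and Atf6 there. Within WT mice the medians were 0.25, 0.26 and 0.06 in the same order, with 7, 7 and 5 of 22 above 0.5. The shares of all genes there were 21.8%, 21.6% and 19.7%. Over all 14 mice the medians of the list were 0.23 with Xbp1, 0.24 with Herpud1 and 0.37 with Atf6. The differences between genotypes were not tested. These correlations are a description over 14 libraries that share preparation and depth.

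Of the 22 XBP1-type genes 2 were called lower and 0 higher, and the median log2 fold change was −0.03, with 6 lower and 0 higher at an unadjusted p under 0.05 and 2 lower and 0 higher by DESeq2. The called genes were the signal recognition particle receptor subunit Srprb (−0.19 ± 0.04, SE, edgeR adjusted p = 0.0196) and the oligosaccharyltransferase subunit Rpn1 (−0.16 ± 0.04, SE, adjusted p = 0.0373). Of 19 tested genes of ER-associated degradation 0 were called in either direction, with a median of −0.05. At an unadjusted p under 0.05 these were 2 lower and 0 higher, and DESeq2 called 1 lower, Ube2g2, which is named after its value had been seen.

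Of 27 tested ATF4/CHOP targets downstream of PERK, 3 were called lower, which is 11.1% against 3.46% of all genes, 0 were called higher and the median was 0.04, with 4 lower and 1 higher at an unadjusted p under 0.05 and 3 lower and 0 higher by DESeq2. The angiogenic factor Vegfa had 51.7 to 60.5 CPM in mice labelled LPAR2-/- and 65.7 to 79.9 CPM in WT mice (log2 fold change −0.36 ± 0.05, SE, edgeR adjusted p = 0.00031). The alanine aminotransferase Gpt2 had 59.2 to 67.1 CPM against 74.3 to 88.5 CPM (log2 fold change −0.32 ± 0.04, SE, adjusted p = 0.00049). The ranges of Vegfa and Gpt2 did not overlap, in contrast to those of all members. Gpt2 lies on chromosome 8 (85492617 to 85527558), the chromosome of Lpar2 (69822565 to 69831102) and also of Calr, Spcs3 and Herpud1. Whether strain differences near Lpar2 had a part in these values, in mice of a mixed strain, was not tested. Stc2, a secreted glycoprotein, changed by −0.61 ± 0.16 (SE, edgeR adjusted p = 0.0298).

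Of the 12 aminoacyl-tRNA synthetases, which load amino acids onto tRNA and are induced through ATF4, 1 was called higher, 0 lower and the median was 0.01, with 1 in each direction at an unadjusted p under 0.05 and by DESeq2 (the lower gene there, Mars, is named after its value had been seen). The higher gene was Lars, with 62.8 to 72.6 CPM in mice labelled LPAR2-/- and 49.1 to 60.2 CPM in WT mice (log2 fold change 0.28 ± 0.05, SE, edgeR adjusted p = 0.0027). CARE was in 5 of the 7 matched synthetase promoters and in 5 of the 21 matched promoters of the ATF4/CHOP targets, against 3.95% of all promoters. Both lists were made of known ATF4 targets, so these shares test nothing either.

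PERK is 1 of 4 kinases of eIF2 alpha, and the others were examined beside it. Eif2ak2, the interferon-induced kinase PKR, was higher in mice labelled LPAR2-/-, with 3.78 to 7.41 CPM against 2.73 to 3.86 CPM and a log2 fold change of 0.82 ± 0.14 (SE, edgeR adjusted p = 0.0027). The haem-regulated kinase Eif2ak1 (−0.10 ± 0.04, SE, adjusted p = 0.150) and the amino acid-sensing kinase Eif2ak4 (−0.04 ± 0.06, SE, adjusted p = 0.748) did not pass. Their substrate Eif2s1, which encodes eIF2 alpha, was slightly lower, with 31.7 to 34.4 CPM against 34.9 to 37.3 CPM (−0.12 ± 0.03, SE, adjusted p = 0.0374), and with 1 mouse removed the list had, in 11 of 14 fits, 0 genes called lower. The list of 14 kinases, phosphatases and exchange factors thus had 1 gene called in each direction.

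The ATF6 relative Atf6b gave a log2 fold change of −0.05 ± 0.06 (SE, edgeR adjusted p = 0.66). It belongs to a list of 18 tested genes that process the sensors or bind them, of which 0 were called in either direction and whose median was 0.01. At an unadjusted p under 0.05 these were 2 lower and 0 higher, and DESeq2 called 2 lower, Map3k5 and Nfya, named after their values had been seen.

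**Figure D5:**
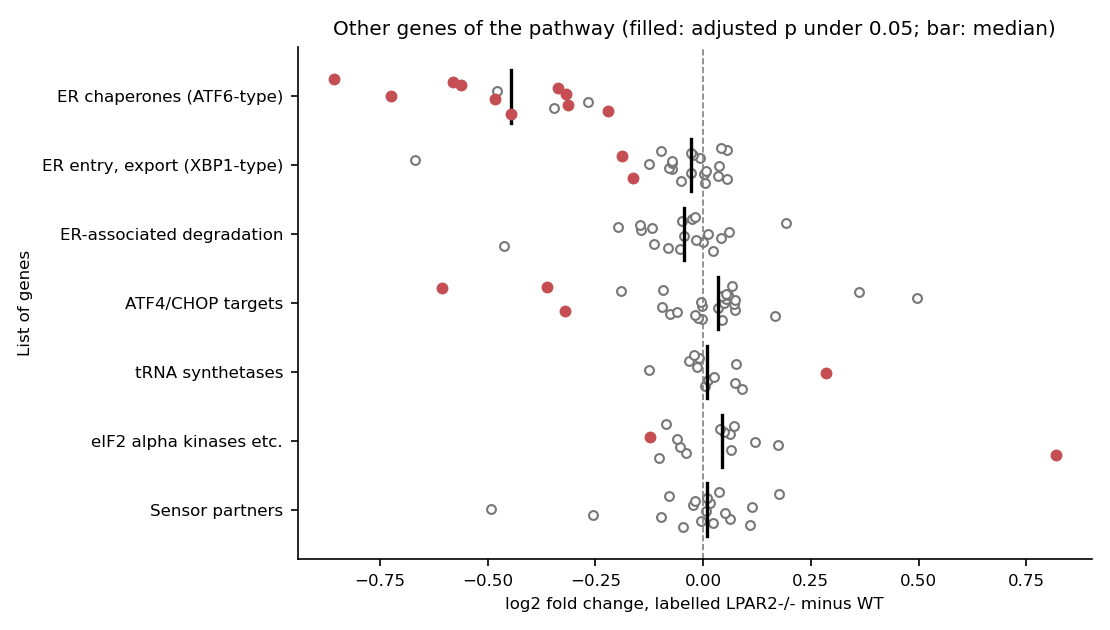
log2 fold change (labelled LPAR2-/- minus WT) of the tested genes of 7 lists, 1 point per gene, filled where the adjusted p is under 0.05, with the list's median as a bar. The chaperone list lies wholly below 0 (median −0.44, 10 of 13 filled), while the medians of the other lists lie between −0.05 and 0.04.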

How the data were processed

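The authors depleted RNA of 14 mice (hippocampus on the labels) of ribosomal RNA and sequenced it. Per the submitters' processing notes and the file headers, the authors used cutadapt 1.18 for trimming, STAR for alignment to mm10 and featureCounts 1.6.3 for counts on exons of the reverse strand. The deposited counts carry no normalization and were the data used here. A deposited table of normalized values was not used, because its decimal points were lost. The total per library is 15434620 to 23258949 counts, which limits the precision of Trib3 and Atf3 above all.

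Counts were tested in R 4.3.3 with edgeR 4.0.16 (TMM, filterByExpr, robust quasi-likelihood F test, genotype alone). Benjamini-Hochberg adjustment at 0.05 ran over the 14897 genes that passed the filter, of 24421. Log2 CPM add a prior count of 2. Pairs of members were compared with exact two-sided permutation tests over 3432 arrangements, whose smallest p is 0.000583, adjusted over 9 pairs. Alternatives were DESeq2 1.42.0, other scalings and filters, a replicate block, and leaving out each mouse. Libraries of a genotype were not copies of each other. The procedures were tested on simulated data.

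Members and lists were chosen with earlier results of these data known. Named genes were all members, of each list up to 4 called genes with the smallest adjusted p, Eif2ak1, Eif2ak2, Eif2ak4, Atf6b and Lpar2, and for each called member the 3 tested genes most alike. Hsp90b1, Calr, Dnajc3 and Creld2 were named besides for the elements in their promoters, Ube2g2, Mars, Map3k5 and Nfya for their DESeq2 calls, and the markers Tdo2 and Lum for their edgeR calls, all after their values had been seen. Correlations within genotypes and motif groups were added after values had been seen. Hm13 was not in the counts table. Genes below the filter were Sec61g, Fgf21 and Ern2 besides Trib3.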

Additional observations from a re-analysis of the deposited data

Results flagged for a closer look

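Of 52 groups of 7 mice examined for an isolated highest or lowest value by Dixon's criterion, 3 had one, and chance alone gives about 1 in 20. Xbp1 had its lowest value among mice labelled LPAR2-/- in mouse 4, at 53.9759 CPM, with the next at 64.1 CPM. Canx had its highest value among mice labelled LPAR2-/- in mouse 3, at 435.007 CPM, with the next at 387 CPM. Pdia6 had its highest value in the same mouse, at 143.227 CPM, with the next at 116 CPM. The summed oligodendrocyte markers were highest in this mouse as well (3635 CPM, with the next of its genotype at 1800 CPM), and their part in both values was not tested. Xbp1 was called without mouse 4 labelled LPAR2-/- and without mouse 3.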

How the results depend on the processing

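Of the 10 members, 2 were called lower with edgeR. Under upper-quartile scaling and without a filter 1 was called, Xbp1, and Atf3 had adjusted p values of 0.0527 and 0.0509. DESeq2, DESeq2 size factors in edgeR and at least 10 counts in every library called 3, adding Herpud1, and leaving out 1 mouse gave 0 to 3 (0 without WT mouse 2 or WT mouse 5). The mouse number as a replicate block gave 0 called members (Xbp1 −0.51, adjusted p = 0.0799, and Atf3 −0.82, adjusted p = 0.109). Over all genes, deviations of same-numbered mice had r from −0.33 to 0.31 (median −0.06, above 0.1 in 3 of 7 pairs), those of differently numbered mice from −0.34 to 0.36 (median 0.02, above 0.1 in 10 of 42), and 3 of 7 mice labelled LPAR2-/- were most alike to the WT mouse of their number. The labels name no shared origin for a number, so the mice were not treated as paired. Under the replicate block 272 genes were called lower and 314 higher, 8 chaperones, 0 XBP1-type targets and 0 eIF2 alpha genes were lower, and the pair differences of −0.31 (Xbp1 against Herpud1) and −0.53 (Xbp1 against Atf4) had an adjusted p of 0.0703 each.

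Upper-quartile scaling moved the median of all genes from 0.003 to 0.023 and the calls to 377 lower and 616 higher (62.0% higher, against 49.0%). Without a filter and under upper-quartile scaling, XBP1-type targets had 1 gene lower and the eIF2 alpha list 0. DESeq2 called 1 gene lower among ER-associated degradation, 1 among the synthetases and 2 among the sensor partners, where DESeq2 size factors and the minimum of 10 counts gave 1. Other counts of the lists stayed within 1.5 times the edgeR count.

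With 1 mouse left out, all genes called ranged from 292 to 725 lower and 275 to 660 higher. Chaperones called lower ranged from 8 to 13, XBP1-type targets from 1 to 2, ER-associated degradation, the synthetases and the eIF2 alpha list from 0 to 1, and the sensor partners from 0 to 2. Fold changes near 0 changed sign for Ern1 (−0.028 to 0.17), Atf6 (−0.038 to 0.031) and Asns (−0.0025 to 0.063). Pair differences ranged from −0.14 to 0.15 for Ern1 and Atf6, −0.078 to 0.16 for Ern1 and Eif2ak3, −0.0084 to 0.084 for Atf6 and Eif2ak3, −0.38 to −0.28 for Xbp1 and Herpud1, −0.64 to −0.47 for Xbp1 and Atf4, −0.27 to −0.19 for Herpud1 and Atf4, −0.25 to −0.16 for Herpud1 and Atf6 and 0.056 to 0.093 for Atf4 and Eif2ak3. The last 3 passed the threshold in 4, 1 and 1 of the 14 tests, Herpud1 with Atf4 and with Atf6 without WT mouse 7 (adjusted p = 0.00787 each by the exact permutation test). The difference of mean library totals, LPAR2-/- minus WT, ranged from −812954 to 491101 counts. The causes were not tested.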
